A study of Homo sapiens with 50 samples.

Results

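H1 human embryonic stem cells that had been treated with HCl and differentiated for 7 days were compared with untreated differentiating cells of the same day, with 2 libraries on each side. H1 is an established, wild-type embryonic stem cell line. The comparison covers the 14807 genes that reached 1 FPKM (a level scaled to the gene's exonic length and the library's total) in at least 2 of these 4 libraries, out of 57905 genes in the deposited table. The study holds 50 RNA sequencing libraries in 25 groups, which include undifferentiated cells and 6 treatments on each of days 3, 5, 7 and 11. Besides control and HCl these are NaHCO3, IWP2, IWP2 with NaHCO3, and IWP2, NaHCO3 and 2-DG together. IWP2 is a small molecule that keeps cells from releasing WNT ligands, and 2-DG (2-deoxyglucose) inhibits glycolysis. By its title the series asks how a change of pH acts on the making of heart muscle cells, and its design text calls differentiation without the WNT inhibitor spontaneous. The control and HCl groups both lack that inhibitor. The labels give neither the dose of HCl nor the time of its addition nor any pH reading, so an effect of acidity and any other effect of HCl cannot be told apart.

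In a dish, stem cells that leave the pluripotent state pass through a primitive-streak-like stage, from which mesoderm and endoderm arise. Cardiac mesoderm then switches on transcription factors such as NKX2-5, ISL1, TBX5, HAND1 and MEF2C, and after them the genes of the contractile apparatus. WNT signalling is known to act in phases in this process: it is needed early and its later inhibition favours heart muscle. Other fates open to the same mesendoderm include liver-type and yolk-sac-like endoderm, which secretes plasma proteins, and fibroblast-like and epicardial mesoderm, which makes collagen-rich matrix.

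Counts per library ran from 17572470 to 20445875 in the 4 libraries, and the biological coefficient of variation over the 26 libraries fitted together was 0.0669. On the first principal component, which held 91.1% of the variance among the 4 libraries, control and HCl lay apart. The second, with 5.0%, separated the HCl libraries from each other. Replicates differed more with HCl than in the control: the chi-square of their counts was 5.11 per degree of freedom with HCl and 1.99 in the control. Mitochondrial genes took 3.83% and 3.93% of the counts in the control and 4.86% and 5.10% with HCl. The labels call the cells embryonic stem cells, but of 4 pluripotency markers NANOG was at 0 FPKM in both control libraries and at 0.20 and 0.17 FPKM with HCl. POU5F1 was at or under 5.78 FPKM in all 4 libraries, against 738 and 770 FPKM in undifferentiated cells. LIN28A stayed at 162 to 245 FPKM. No label says that replicates came from separate cultures, so p-values measure only the spread between these libraries, which may be technical. Because the RNA was taken from whole cultures, fewer cells of a type and less RNA per cell cannot be told apart.

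At day 7 most reported sarcomere genes were higher in HCl-treated cultures than in control cultures, and most reported liver-type and HOXB genes were lower. Part of the matrix genes and the defining epicardial markers were lower too, and cardiac transcription factors and calcium handling genes moved both ways. A gene was called when its fold change was at least 2 and its adjusted p was under 0.05 in edgeR's quasi-likelihood test, with Benjamini-Hochberg adjustment over all 18451 genes tested. On this rule 913 genes (6.17%) rose and 1074 genes (7.25%) fell, 13.4% in either direction. Falls reached further than rises: 155 genes fell by over 16-fold, whereas 34 genes rose that much. Without regard to the size of the change, 3935 genes (26.6%) were higher and 3225 genes (21.8%) lower at the same adjusted p. Both HCl libraries lay below both control libraries in 5791 genes (39.1%), so groups that do not overlap were common.

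**Figure D1:**
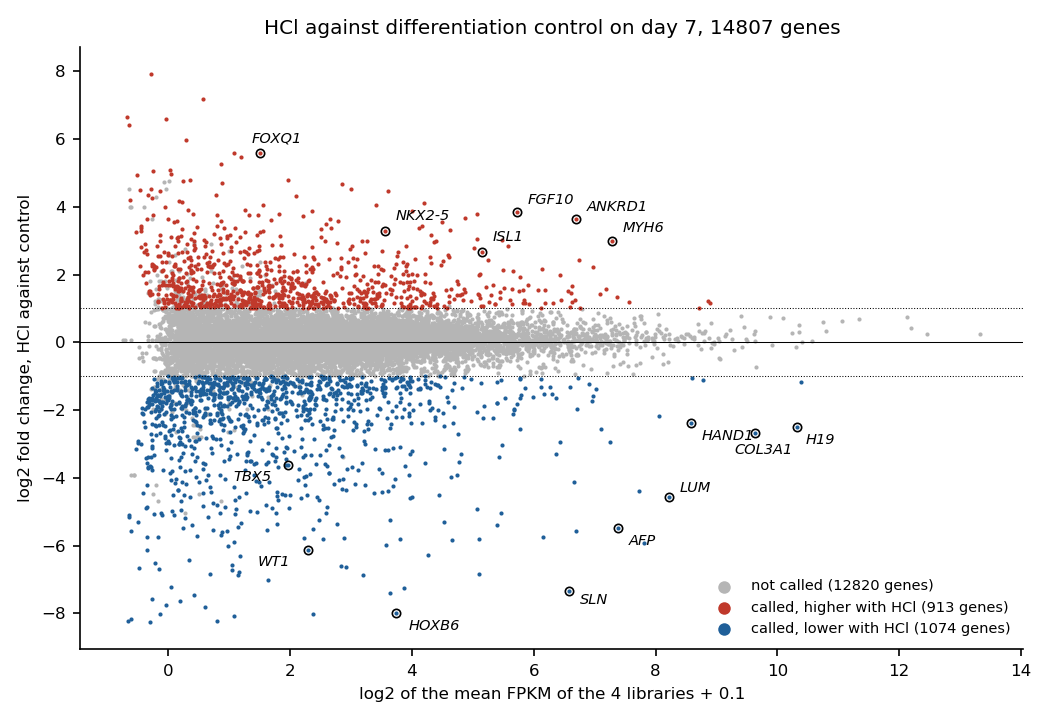
Each point is 1 of 14807 genes, with the log2 of its mean FPKM over the 4 libraries plus 0.1 on the x axis and its fitted log2 fold change, HCl against control, on the y axis. The 913 called rises are red and the 1074 called falls blue, dotted lines mark a 2-fold change, and of the 15 genes labelled by name HOXB6 lies lowest and FOXQ1 highest.

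The 12 largest rises, among called genes of at least 5 FPKM in the higher group whose groups did not overlap, were led by the forkhead factor FOXQ1. It was at 0.05 and 0.17 FPKM in the control and at 6.07 and 4.63 FPKM with HCl. FGF8, a growth factor of the primitive streak and the early heart field, went from 0.56 and 0.78 to 14.96 and 15.48 FPKM. ACTN3, an alpha-actinin of fast skeletal muscle, went from 0.52 and 0.60 to 13.65 and 13.79 FPKM. FGF10, a growth factor made by second heart field progenitors, was the most abundant of the 12 after the rise. It was at 7.13 and 7.11 FPKM in the control and at 105 and 91.7 FPKM with HCl (log2 fold change 3.84 ± 0.10 (SE), edgeR adjusted p = 3.56e-23). The other eight were SYNDIG1L, AC130352.1, C12orf39, CBLN2, DDIT4L, MYH7, MYOCD and VRTN, with log2 fold changes from 3.88 to 4.78. Of these, MYH7 and MYOCD encode a myosin heavy chain and a cardiac coactivator and are described with the heart genes.

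Among the 12 largest falls, SULT1E1, an estrogen sulfotransferase, dropped from 10.69 and 9.72 FPKM to 0.04 and 0.02 FPKM. DPYS and AKR1D1, enzymes of pyrimidine breakdown and of bile acid synthesis in liver, fell too, with log2 fold changes of -7.39 and -6.86. ALOX15, an arachidonate lipoxygenase, went from 30.3 and 27.5 to 0.18 FPKM in both HCl libraries. KCNIP1, SHISA3 and the transcript AC061961.2 fell by 7.01, 6.26 and 6.60. The others, HOXB6, SLN, SERPINA1, DCN and WT1, belong to the HOX, calcium handling, liver, matrix and epicardial lists and are described there.

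Cardiac transcription factors moved both ways. Of 30 listed, 26 were reported, 10 rose and 5 fell, with a median log2 fold change of 0.65 against 0.05 over all reported genes. Of all genes 6.17% rose and 7.25% fell. NKX2-5 (chr5:172659112-172662360, GRCh37), a homeobox factor that marks cardiac progenitors and heart muscle, was at 2.23 and 2.22 FPKM in the control and at 17.81 and 24.35 FPKM with HCl. The groups did not overlap, and the rise was 9.79-fold (log2 fold change 3.29 ± 0.20, edgeR adjusted p = 1.24e-10). MYOCD, a coactivator of serum response factor in heart and smooth muscle, was at 2.03 and 2.14 FPKM in the control and at 26.1 and 33.4 FPKM with HCl. SMYD1, a muscle-specific histone methyltransferase and myosin chaperone, went from 3.90 and 4.78 to 49.8 and 57.9 FPKM. ISL1, which marks second heart field progenitors, went from 9.10 and 10.65 to 62.0 and 59.8 FPKM, and MEF2C from 4.56 and 5.12 to 34.5 and 37.7 FPKM. The IRX1, IRX2 and IRX3 homeobox factors rose by 1.59, 1.82 and 1.99 on the log2 scale, and the NOTCH target HEY1 by 2.46. MEF2A completed the rises, with a log2 fold change of 1.4.

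The 5 factors that fell have known roles in the first heart field, the chambers or the conduction system. HAND1 (chr5:153854532-153857824), a factor of extra-embryonic mesoderm, lateral mesoderm and the left ventricle, was the most abundant of the list. It stood at 649 and 646 FPKM in the control and at 120 and 119 FPKM with HCl, a 5.23-fold fall (log2 fold change -2.39 ± 0.08, edgeR adjusted p = 9.84e-21). TBX5 (chr12:114791736-114846247), a first heart field and left ventricle factor, was at 6.25 and 7.78 FPKM in the control. With HCl it was at 0.09 and 1.07 FPKM, so the treated libraries differed from each other by more than 10-fold; in a fit of the 4 libraries alone its edgeR adjusted p was 0.0844. TBX2 and TBX3, repressors that keep valve and conduction tissue from becoming working muscle, fell by 1.27 and 1.5, and the GATA4 partner ZFPM2 by 2.11. GATA4 itself (50.6 and 53.2 FPKM in the control, 70.0 and 67.9 FPKM with HCl) and HAND2 stayed under the 2-fold limit, with log2 differences of 0.46 and 0.13.

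Sarcomere and Z-disc genes showed the broadest rise of the heart muscle lists. Of 45 listed, 35 were reported, 26 rose and none fell, and the median log2 fold change was 1.55. The other 10 were below 1 FPKM in all but at most 1 library, among them the ventricular light chain MYL2 (0 FPKM in 3 of the 4 libraries) and the adult troponin TNNI3 (at most 0.45 FPKM). Of all genes 6.17% rose and 7.25% fell. Some members, such as MYH7, ACTA1 and CSRP3, passed the filter only through the HCl libraries and could be counted only as rises. The absence of falls is therefore partly set by the filter. MYH6 (chr14:23851199-23877486), the atrial and embryonic myosin heavy chain, had the highest level of the thick filament genes that rose by 4-fold or more. It was at 31.1 and 40.2 FPKM in the control and at 220 and 330 FPKM with HCl, an 8.0-fold rise (log2 fold change 3.00 ± 0.69, edgeR adjusted p = 0.0028). In a fit of the day 7 libraries alone the edgeR adjusted p of MYH6 was 0.0557. MYL7, the atrial light chain, stood at 285 and 323 FPKM in the control and at 571 and 730 FPKM with HCl. UNC45B, a chaperone of myosin folding, went from 4.37 and 4.97 to 57.1 and 68.1 FPKM, and LDB3, a Z-disc protein, from 1.19 and 1.22 to 8.66 and 11.4 FPKM. Skeletal actin ACTA1 went from 0.42 and 0.85 to 7.16 and 9.68 FPKM, and the giant spring protein TTN from 2.50 and 2.83 to 8.28 and 9.35 FPKM. The commonly used marker TNNT2, cardiac troponin T, was at 30.2 and 32.5 FPKM in the control and at 44.5 and 68.7 FPKM with HCl. Its log2 fold change of 0.90 ± 0.15 was under the limit for a call although the groups did not overlap (edgeR adjusted p = 1.2e-04). Cardiac actin ACTC1 and the slow troponin TNNI1 were likewise higher without being called, at log2 fold changes of 0.88 and 0.89.

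The HCl libraries did not carry these genes evenly. In 32 of the 35 reported sarcomere genes replicate 2 of HCl was above replicate 1, and in the control replicate 2 was above replicate 1 in 30. Over all 14807 genes replicate 2 was the higher one in 6964 genes with HCl and in 7293 in the control. MYH7, the slow and ventricular myosin heavy chain, was at 0.34 and 0.33 FPKM in the control but at 1.33 FPKM in replicate 1 and 9.40 FPKM in replicate 2 of HCl, and with the 4 libraries alone its edgeR adjusted p was 0.199. MYH6 and MYH7 are near-identical neighbours, so reads may be split between them uncertainly. MYL3 (chr3:46899362-46923659), the ventricular essential light chain, was at 5.27 and 7.73 FPKM in the control, at 6.32 FPKM in replicate 1 of HCl and at 31.2 FPKM in replicate 2. The groups thus overlapped, and without replicate 2 of HCl the log2 fold change of MYL3 went from 1.55 to -0.01. With the 4 libraries alone its edgeR adjusted p was 0.400. MYL3 also lies across PTH1R on the opposite strand, which was at 15.5 to 21.9 FPKM, and the sources used here do not say if counting took strand into account. Leaving out replicate 2 of HCl left 20 called sarcomere genes, leaving out replicate 1 gave 31, and a fit of the 4 libraries alone called 17. The 4 cardiomyocyte markers TNNT2, MYH6, ACTN2 and NKX2-5 summed to 72.7 and 85.3 FPKM in the control and to 298 and 446 FPKM with HCl, and their part in the other changes was not tested.

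**Figure D2:**
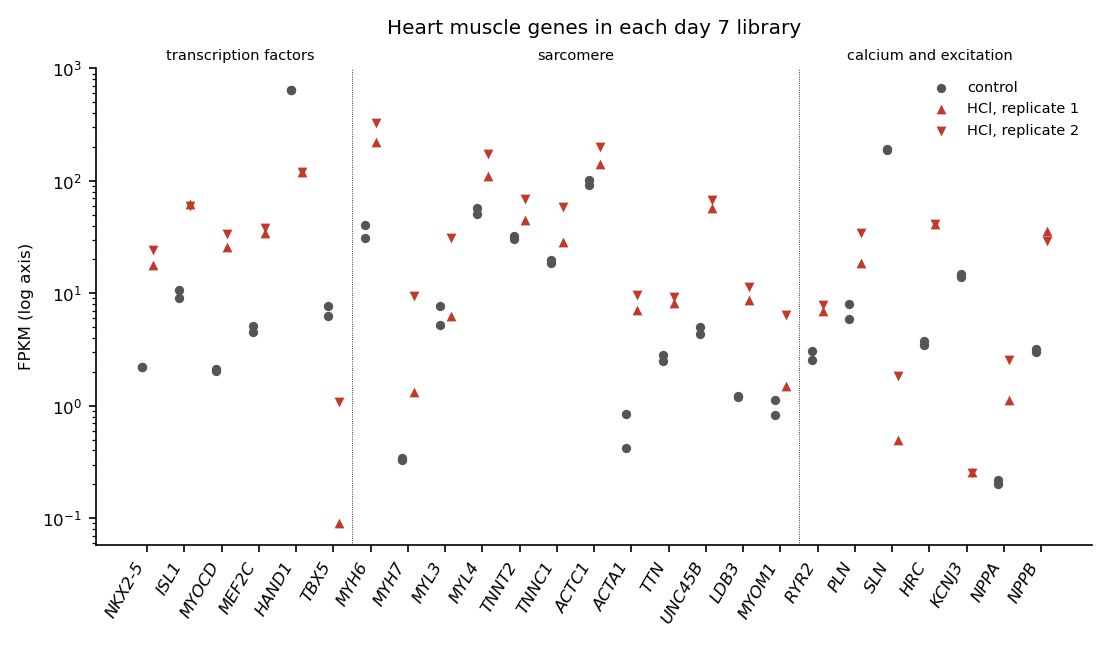
FPKM on a log axis for 25 heart muscle genes in the 4 day 7 libraries, with grey circles for the control and red triangles for HCl replicate 1 (pointing up) and replicate 2 (pointing down). TBX5, MYH7, MYL3 and MYOM1 show wide gaps between the HCl libraries, and HAND1, TBX5, SLN and KCNJ3 lie below the control.

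Promoters of sarcomere genes are shown where they hold a CArG box, the site bound by serum response factor. A part of this factor or of MYOCD in the rises was not tested. Of the 35 reported sarcomere genes 26 matched a promoter in the RefSeq table (build GRCh38.p14). In the 250 bases before the start site 6 of these 26 held a CArG box on either strand. Of all 35116 promoter entries 1.16% did, but there every entry was counted and in the list only 1 per gene. The shares are thus not on the same basis, and called and uncalled genes were not compared. The 6 genes were ACTA1, ACTC1, FHL2, LDB3, MYL7 and MYOM1, all called except ACTC1. The motif was chosen after several others had been searched, and a match is a description of letters, not of a bound site. Stretches of 100 bases around the box are given 5′ to 3′ on the gene's strand, with the box in capitals: for ACTA1 chr1:229434137-229434236 (minus strand), for MYL7 chr7:44141339-44141438 (minus strand) and for LDB3 chr10:86668409-86668508 (plus strand).
ACTA1: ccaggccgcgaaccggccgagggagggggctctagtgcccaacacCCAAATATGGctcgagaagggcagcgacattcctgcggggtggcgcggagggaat
MYL7: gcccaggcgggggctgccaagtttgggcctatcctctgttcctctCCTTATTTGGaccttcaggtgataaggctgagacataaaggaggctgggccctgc
LDB3: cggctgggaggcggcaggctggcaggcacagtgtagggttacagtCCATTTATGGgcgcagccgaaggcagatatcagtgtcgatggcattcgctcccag
The box starts 97 bases before the start site in ACTA1, 61 in MYL7 and 57 in LDB3.

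Calcium handling and excitation genes were mixed. Of 35 listed, 27 were reported, 13 rose and 4 fell, and the median log2 fold change was 0.89. Of all genes 6.17% rose and 7.25% fell. Some members could be counted in only 1 direction: NPPA passed the filter only through the HCl libraries and KCNJ3 only through the control libraries. HRC, a calcium-binding protein of the sarcoplasmic reticulum, was at 3.50 and 3.73 FPKM in the control and at 40.9 and 41.2 FPKM with HCl. The release channel RYR2 went from 2.55 and 3.06 to 7.01 and 7.94 FPKM (log2 fold change 1.46 ± 0.14, edgeR adjusted p = 5.45e-08). PLN, which restrains the calcium pump, went from 5.94 and 7.97 to 18.4 and 34.7 FPKM, with replicate 2 of HCl again the higher one (edgeR adjusted p = 0.0975 with the 4 libraries alone). The pump itself, ATP2A2, was at 26.9 FPKM in both control libraries and at 30.5 and 31.0 FPKM with HCl, a log2 difference of 0.25. SLN, the atrial regulator of the same pump, showed the opposite direction. It was at 188 and 192 FPKM in the control and at 0.50 and 1.82 FPKM with HCl (log2 fold change -7.35 ± 0.42, edgeR adjusted p = 7.81e-09). The atrial potassium channel KCNJ3 went from 14.8 and 14.0 to 0.26 and 0.25 FPKM, whereas its partner subunit KCNJ5 rose from 1.45 and 1.67 to 8.03 and 9.28 FPKM. The pacemaker channel HCN4 fell from 7.2 and 8.34 to 3.02 and 4.28 FPKM. The natriuretic peptide gene NPPB went from 3.20 and 3.03 to 35.7 and 29.5 FPKM, and NPPA, at 0.20 and 0.22 FPKM in the control, reached only 1.12 and 2.53 FPKM.

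Energy metabolism genes were mostly higher by less than 2-fold. Of 30 reported genes of the TCA cycle, fatty acid oxidation and energy buffers 4 rose and none fell, where 6.17% of all genes rose. At any fold 16 of the 30 were higher at an adjusted p under 0.05, as were 15 of 24 nuclear and 11 of 13 mitochondrially encoded subunits of oxidative phosphorylation, against 26.6% of all genes. The 4 of the 30 that were called were the fatty acid transporter CD36, the creatine kinase CKM, myoglobin (MB) and the mitochondrial biogenesis coactivator PPARGC1A. PPARGC1A was at 1.30 and 1.39 FPKM in the control and at 3.44 and 5.05 FPKM with HCl. CKM rested on replicate 2 of HCl, at 8.19 FPKM against 1.33 FPKM in replicate 1, and lost its call without it (edgeR adjusted p = 0.144). None of the oxidative phosphorylation subunits passed the 2-fold limit, at median log2 fold changes of 0.25 (nuclear) and 0.52 (mitochondrially encoded). In the glycolysis list 2 of 25 reported genes rose and 3 fell, where 6.17% of all genes rose and 7.25% fell. The basal glucose transporter SLC2A1 was among those that fell. It was at 81.7 and 81.2 FPKM in the control and at 20.56 and 19.96 FPKM with HCl (log2 fold change -1.96 ± 0.21, edgeR adjusted p = 2.09e-06). The high-affinity transporter SLC2A3 was at 162 and 160 FPKM in the control and at 274 and 261 FPKM with HCl, under the 2-fold limit. PDK4, which shuts pyruvate out of the TCA cycle, fell from 4.79 and 4.42 to 1.06 and 1.23 FPKM.

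Liver-type and visceral endoderm genes fell almost as a block. Of 53 listed, 38 were reported, 30 fell and 2 rose, with a median log2 fold change of -3.50. Of all genes 7.25% fell and 6.17% rose. All 22 reported genes for secreted proteins had both HCl libraries below both control libraries (39.1% of all genes had), and 20 of the 22 were called. Some of these genes, such as SERPINA1, passed the filter only through the control libraries and could be counted only as falls. AFP (chr4:74296855-74321891), alpha-fetoprotein, was at 317 and 336 FPKM in the control and at 4.86 and 9.20 FPKM with HCl, a 45.1-fold fall (log2 fold change -5.49 ± 0.73, edgeR adjusted p = 2.38e-05). The lipoprotein gene APOA1 went from 396 and 411 to 16.1 and 21.1 FPKM, APOA2 from 448 and 437 to 5.27 and 8.95 FPKM, and the thyroid hormone carrier TTR from 193 and 192 to 11.1 and 9.96 FPKM. Fibrinogen chain FGB, at 201 and 205 FPKM in the control, was at 3.49 and 4.8 FPKM with HCl, and the protease inhibitor SERPINA1 went from 65.6 and 70.5 to 0.45 and 0.72 FPKM. APOA4, one of the 2 not called, went from 13.32 and 12.98 to 0.75 and 1.70 FPKM (edgeR adjusted p = 0.0508). OTC, a urea cycle enzyme outside the list, had 0 counts in both HCl libraries and 1.44 and 1.42 FPKM in the control, at least 14.1-fold lower against a floor of 3 counts per library.

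The regulators of this programme fell less evenly. HNF4A, the nuclear receptor that governs hepatocyte genes, was at 24.7 and 24.3 FPKM in the control and at 1.10 and 1.41 FPKM with HCl (log2 fold change -4.24 ± 0.20, edgeR adjusted p = 4.97e-12). CEBPA fell by 4.18 and FOXA2 by 2.07 on the log2 scale. FOXA3 and GATA3 were not called, at -0.20 and 0.26. The 2 rises were SOX17, an early endoderm factor also used by vessels (0.49 and 0.65 FPKM in the control, 1.76 and 1.07 FPKM with HCl), and PROX1, a liver, lymphatic and heart muscle factor (2.34 and 2.14 to 7.05 and 7.23 FPKM). SOX17 passed the filter only through the HCl libraries and could be counted only as a rise. HNF4A-AS1, on the opposite strand of HNF4A, fell as well, from 4.8 and 3.7 to 0 and 0.06 FPKM, and reads of the partners cannot be told apart if strand was not used. General epithelial genes changed less: of 21 reported, 3 fell (CRB3, CLDN3 and CLDN7) and none rose, and EPCAM was at 30.3 and 28.5 FPKM in the control and 20.2 and 19.7 FPKM with HCl. Cholesterol synthesis genes, which liver and other cells use, were lower at an adjusted p under 0.05 in 15 of 17 reported genes (21.8% of all genes were), and 6 of them passed the 2-fold limit. At that limit 7.25% of all genes fell and 6.17% rose. Summed over AFP, TTR, APOA1 and HNF4A, the endoderm markers were at 931 and 963 FPKM in the control and at 33.2 and 41.6 FPKM with HCl, and their part in the change of metabolic genes was not tested.

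Fibroblast and matrix genes fell in part. Of 26 listed, 25 were reported, 10 fell and none rose, and the median log2 fold change was -0.76. Of all genes 7.25% fell and 6.17% rose. Some members, such as DCN, PRRX1 and POSTN, passed the filter only through the control libraries and could be counted only as falls. The absence of rises is therefore partly set by the filter. COL3A1 (chr2:189839046-189877472), a fibrillar collagen, was at 1416 and 1350 FPKM in the control and at 213 and 206 FPKM with HCl (log2 fold change -2.67 ± 0.17, edgeR adjusted p = 3.7e-09). The proteoglycan LUM went from 586 and 559 to 23.3 and 23.8 FPKM and DCN from 15.3 and 14.2 to 0.11 and 0.18 FPKM. The mesenchymal homeobox factor PRRX1 was at 26.1 and 22.2 FPKM in the control and at 0.51 and 0.72 FPKM with HCl, and POSTN at 18.3 and 17.0 against 0.87 and 0.99 FPKM. COL1A1, at 242 and 226 FPKM in the control, was at 151 and 130 FPKM with HCl, a log2 difference of -0.68 that was not called. Fibronectin (FN1) and the receptor PDGFRA were higher with HCl: FN1 was at 350 and 344 against 500 and 470 FPKM, and PDGFRA at 42.1 and 41.4 against 62.5 and 56.9 FPKM, both under the 2-fold limit. The 4 fibroblast markers COL1A1, COL3A1, LUM and PDGFRA thus did not move together. Among smooth muscle genes, which share serum response factor with heart muscle, 3 of 7 reported rose and none fell, where 6.17% of all genes rose. TAGLN went from 27.1 and 30.2 to 75.4 and 82.4 FPKM and CNN1 from 6.14 and 6.84 to 23.4 and 27.5 FPKM, while ACTA2 was at 138 and 143 against 88.4 and 128 FPKM. MYH11, the marker of mature smooth muscle, was at or under 0.11 FPKM in all 4 libraries.

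Epicardial genes, of which 8 of 10 were reported, were all called, 5 lower and 3 higher. Of all genes 7.25% were called lower and 6.17% higher. WT1 (chr11:32409321-32457176), the zinc finger factor that marks epicardium, was at 9.03 and 9.87 FPKM in the control and at 0.15 and 0.11 FPKM with HCl (log2 fold change -6.12 ± 0.25, edgeR adjusted p = 2.97e-17). TBX18 went from 3.95 and 4.55 to 0.05 and 0.16 FPKM, UPK3B from 3.63 and 2.76 to 0.12 and 0.08 FPKM, and BNC1 and BNC2 fell by 2.08 and 3.60 on the log2 scale. The 3 that rose were ALDH1A2, LRRN4 and SEMA3D, none of them among the 4 defining markers. LRRN4 was at 13.6 and 16.5 FPKM in the control and at 36.6 and 40.2 FPKM with HCl. ALDH1A2 passed the filter only through the HCl libraries, and WT1, TBX18 and UPK3B only through the control libraries. Endothelial genes were mostly silent: 5 of 17 were reported, CDH5 was at 0.43 to 0.67 FPKM, and TEK, an angiopoietin receptor, fell from 27.2 FPKM in both control libraries to 2.09 and 2.10 FPKM. KDR, the VEGF receptor also carried by cardiac mesoderm, was at 113 and 112 FPKM in the control and at 124 and 95.9 FPKM with HCl. Of the blood-lineage factors, LMO2 rose from 1.08 and 1.10 to 11.8 and 13.2 FPKM and GATA2 from 2.57 and 2.44 to 6.29 and 5.76 FPKM, with GATA1 and TAL1 at or under 0.29 FPKM throughout.

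**Figure D3:**
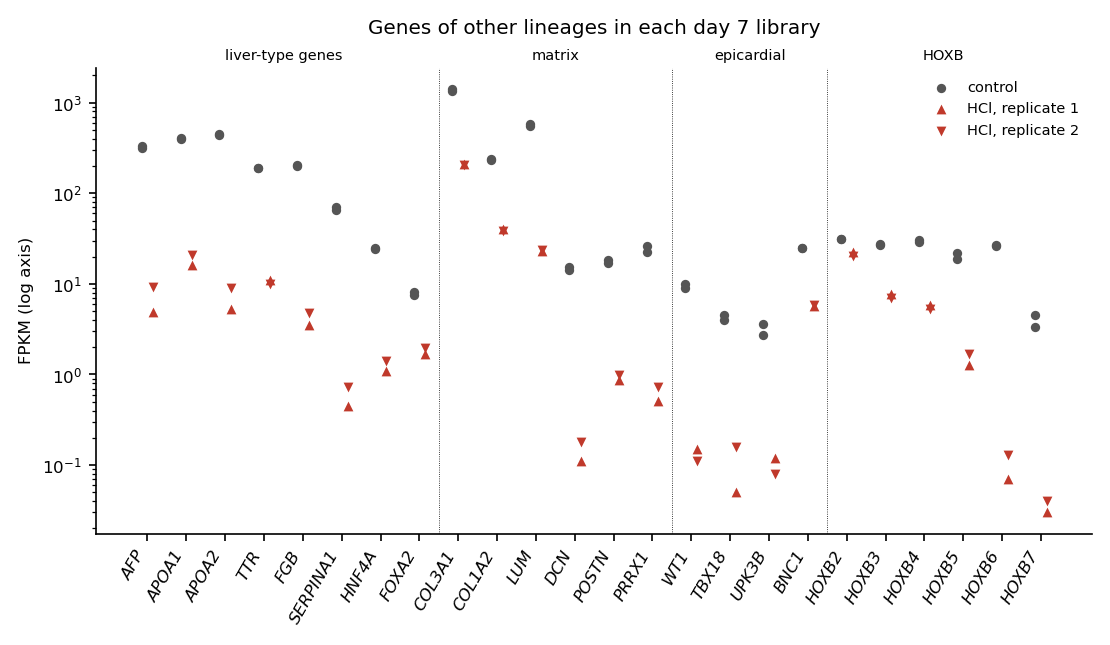
FPKM on a log axis for 24 genes of liver-type endoderm, matrix, epicardium and the HOXB cluster in the 4 day 7 libraries, with symbols for the control and for each HCl replicate. Each of the 24 genes has both HCl libraries below both control libraries, from a small gap at HOXB2 to the widest at HOXB6.

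Within the HOX clusters, whose genes set position along the body axis, the HOXB genes fell by amounts that differed along the cluster. Of 32 HOX and CDX genes listed, 7 were reported, all of them HOXB genes, and 6 fell and none rose. Of all genes 7.25% fell. Some of them, HOXB6, HOXB7 and HOXB8 included, passed the filter only through the control libraries and could be counted only as falls. Every HOXA, HOXC, HOXD and CDX gene listed was at or under 0.69 FPKM in all 4 libraries. HOXB2 (chr17:46618256-46623441) was at 31.1 and 31.0 FPKM in the control and at 22.5 and 20.5 FPKM with HCl, a log2 difference of -0.48 that was not called. In the order of the genes along chromosome 17, HOXB3 fell by 1.82, HOXB4 by 2.38, HOXB5 by 3.73, HOXB6 by 8.0 and HOXB7 by 6.56 on the log2 scale. HOXB6 (chr17:46671639-46682354), the most abundant in the control of HOXB5, HOXB6 and HOXB7, was at 27.0 and 26.0 FPKM there and at 0.07 and 0.13 FPKM with HCl (standard error of the log2 fold change 0.25, edgeR adjusted p = 2.17e-17). HOXB8 (chr17:46688739-46692478), at 1.08 and 1.04 FPKM in the control, had 0 counts in both HCl libraries, at least 13.9-fold lower against a floor of 3 counts per library. HOXB-AS3, on the opposite strand of HOXB3 to HOXB6, went from 1.61 FPKM in both control libraries to 0 and 0.09 FPKM. HOXB-AS2, opposite HOXB3, went from 9.63 and 12.56 to 1.96 and 1.08 FPKM. By contrast, HOXB-AS1, opposite HOXB2 and HOXB3, was at 5.45 and 6.00 against 7.14 and 6.71 FPKM. Reads of such partners cannot be told apart if counting did not use strand. HOXB1, at the other end, was at 1.20 and 0.87 FPKM in the control and at 0.12 and 0.07 FPKM with HCl and was below the filter.

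HOXB genes respond to retinoic acid, a vitamin A derivative that patterns the heart tube and the trunk, and genes of retinoic acid handling moved both ways. Of 15 reported, 4 rose and 4 fell, where 6.17% of all genes rose and 7.25% fell. ALDH1A2 (chr15:58245622-58790065), the main embryonic enzyme of retinoic acid synthesis, was at 0.18 and 0.14 FPKM in the control and at 1.68 and 1.88 FPKM with HCl (log2 fold change 3.55 ± 0.29, edgeR adjusted p = 9.48e-12). ALDH1A1, an enzyme of the same step, went the other way, from 21.2 and 20.8 to 1.94 and 2.57 FPKM. The receptor and target gene RARB went from 1.26 and 0.74 to 10.9 and 10.7 FPKM, and the carriers CRABP1 and CRABP2 rose by 2.55 and 2.42. CYP26A1, which breaks retinoic acid down, fell from 2.29 and 3.33 to 0.22 and 0.34 FPKM. RXRG and DHRS3 also fell, by 2.13 and 1.62.

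A small set of early-stage genes was higher with HCl on day 7. Of 14 reported pluripotency genes 7 rose and none fell, and of 9 reported primitive streak genes 5 rose and none fell. Of all genes 6.17% rose and 7.25% fell. Some members, such as SOX2, GDF3 and TDGF1, passed the filter only through the HCl libraries and could be counted only as rises. The absence of falls is therefore partly set by the filter. POU5F1, a core pluripotency factor, was at 0.89 and 1.12 FPKM in the control and at 5.30 and 5.78 FPKM with HCl (edgeR adjusted p = 0.00702, DESeq2 adjusted p = 0.140). SOX2 was at 0.18 and 0.14 against 1.80 and 1.88 FPKM, and in undifferentiated cells at 145 and 139 FPKM. GDF3 and TDGF1, a ligand and a co-receptor of NODAL signalling, went from 0.14 and 0.12 to 3.45 and 3.30 FPKM and from 0.57 and 0.54 to 4.84 and 4.67 FPKM. The streak factors EOMES, GSC, LHX1 and MIXL1 stayed under 3 FPKM in every library although they rose. T (brachyury), the classical streak gene, was at or under 0.09 FPKM in all 4 libraries and was not reported. Head and neural factors with low levels rose too, with OTX2 going from 4.95 and 4.02 to 16.6 and 14.3 FPKM, while LHX2 fell from 8.72 and 9.45 to 0.55 and 0.19 FPKM. Of the other neural markers, SOX3 was at 0.08 and 0.12 FPKM in the control and 0.70 and 0.82 FPKM with HCl, and PAX6 and SOX1 were at or under 0.14 FPKM. The 4 neural markers, OTX2 included, summed to 5.10 and 4.26 FPKM in the control and 17.4 and 15.3 FPKM with HCl.

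Signalling genes of the WNT and BMP pathways were called in both directions, where 6.17% of all genes rose and 7.25% fell. WNT signals set the pace of cardiac commitment, and BMP signals induce cardiac mesoderm. Among WNT genes 4 of 19 reported rose and 3 fell: the ligand WNT5A and the antagonists DKK1 and SFRP2 rose, along with the receptor-like target TNFRSF19, and the ligand WNT11 and the antagonists FRZB and SFRP5 fell. SFRP2 was at the edge of the call (0.70 and 0.65 FPKM in the control, 1.66 and 1.62 FPKM with HCl, edgeR adjusted p = 0.043) and lost it under 7 alternatives that kept all 4 libraries, among them DESeq2 (adjusted p = 0.0505) and the replicate block (edgeR adjusted p = 0.0508). FRZB was at 152 and 149 FPKM in the control and at 14.0 and 15.5 FPKM with HCl. The feedback target AXIN2 was at 5.52 and 6.11 against 4.26 and 4.87 FPKM and LEF1 at 27.3 and 27.4 against 29.6 and 26.7 FPKM, neither called. Of 20 reported BMP genes 5 rose and 3 fell. The ligands BMP2, BMP6, BMP7 and BMP10 rose, BMP2 from 13.9 and 14.4 to 51.3 and 59.1 FPKM. GREM1, an antagonist, rose by 3.09 while the antagonist FST fell by 1.31. The targets ID1, ID3 and SMAD7 changed by less than 0.2 on the log2 scale, and MSX1 fell from 95.1 and 92.1 to 16.8 and 13.9 FPKM.

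Genes that handle acid and base, looked at because HCl lowers pH, were called in both directions: 4 of 23 reported rose and 7 fell, where 13.4% of all genes were called. CA4, a membrane carbonic anhydrase, went from 10.45 and 9.62 to 0.19 and 0.23 FPKM (log2 fold change -5.51 ± 0.29, edgeR adjusted p = 2.51e-16). SLC9A3R1, the scaffold of the proton exchanger NHE3 in epithelia, fell from 276 and 265 to 34.4 and 33.5 FPKM. The bicarbonate importers SLC4A4 and SLC4A7 rose by 1.34 and 1.23, and the lactate exporter SLC16A3 fell by 1.00. Of the 8 listed proton-sensing genes only ASIC1 was reported, at 3.83 and 4.38 against 4.19 and 3.90 FPKM. The proton pump and lysosome list (31 reported) had 1 call, NPC2, a cholesterol carrier that rose from 73.8 and 77.1 to 223 and 208 FPKM.

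Stress genes were called in both directions and G2/M genes not at all, where 6.17% of all genes rose and 7.25% fell. Of 21 reported genes of the integrated stress response 4 rose (VLDLR, STC2, MTHFD2 and ASNS) and 1 fell (PCK2). Its factors ATF4 and DDIT3 and the cytokine GDF15, at 1.55 and 1.43 against 1.69 and 1.20 FPKM, were not called. VLDLR, a lipoprotein receptor, went from 4.44 and 4.82 to 45.01 and 43.88 FPKM. Of 21 p53 targets 6 rose and 3 fell. CDKN1A, the cell cycle inhibitor p21, went from 0.86 and 1.31 to 6.15 and 5.99 FPKM (log2 fold change 2.52 ± 0.21, edgeR adjusted p = 8.34e-10), while MDM2, at 9.39 and 8.28 against 8.57 and 8.07 FPKM, was not called. FAS, one of the 3 that fell, overlaps ACTA2 on the opposite strand. None of 20 G2/M genes passed the 2-fold limit, but 19 of the 20 were higher at an adjusted p under 0.05 (26.6% of all genes were), with log2 differences up to 0.71 for PLK1. MKI67, the exception, was at 15.8 FPKM in both control libraries and at 18.8 and 16.6 FPKM with HCl. Of 12 reported immediate early and YAP target genes 3 rose: ANKRD1, a YAP target and stretch-responsive sarcomere protein, went from 14.95 and 17.10 to 182 and 200 FPKM, and CTGF and CYR61 rose by 2.10 and 1.60. The small heat shock genes HSPB1, HSPB6 and HSPB8 rose and CRYAB fell, whereas no cytosolic heat shock gene was called.

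**Figure D4:**
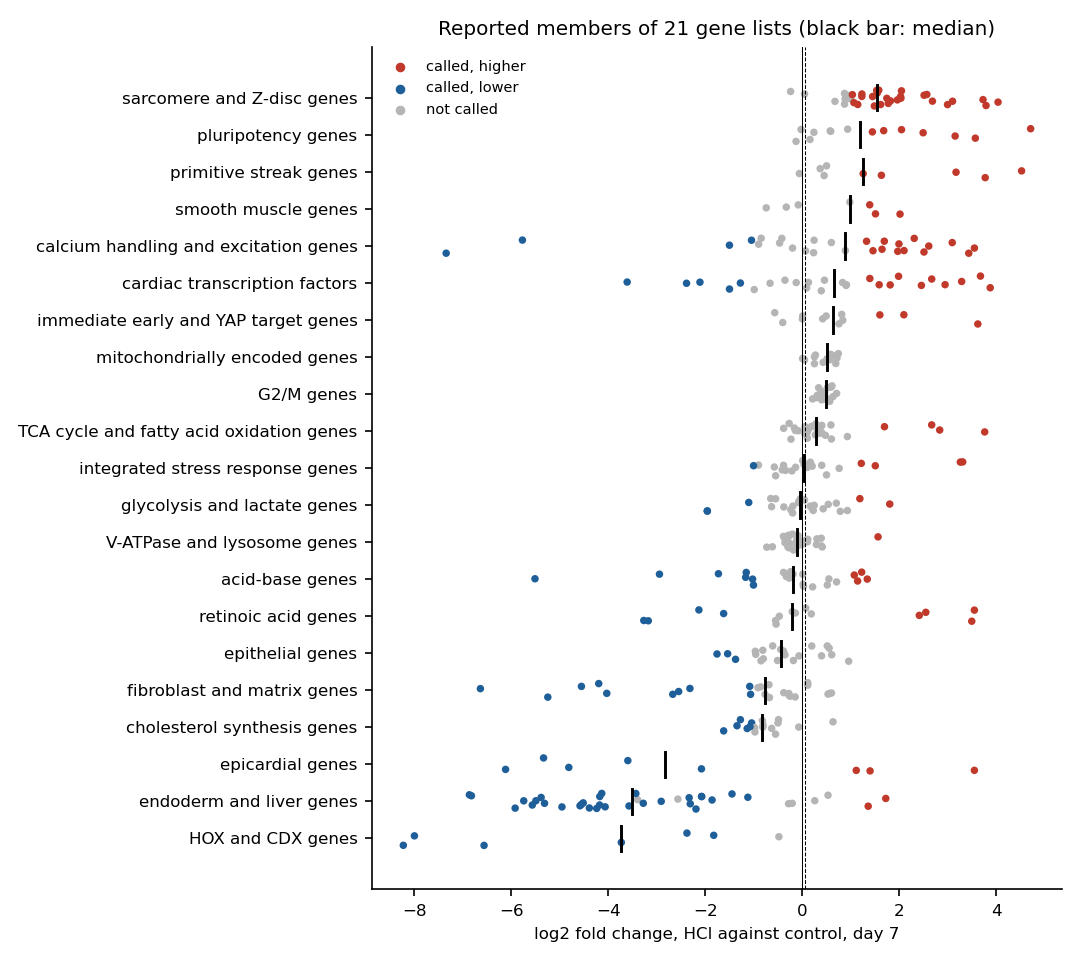
Fitted log2 fold changes, HCl against control, of the reported members of 21 gene lists, 1 point per gene, with red for called rises, blue for called falls, grey for genes not called and a black bar at the median. Medians run from 1.55 for sarcomere genes to -3.73 for HOX and CDX genes, and the dashed line marks the median of all reported genes at 0.05. Some members passed the filter only through the control libraries or only through the HCl libraries.

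The effect of HCl on day 7 was set against its effect on day 11 with an interaction term in the same fit. It was higher on day 7 in 1391 genes (9.39%) and lower in 1012 genes (6.83%), at the same limits. Of 28 reported genes of the 30-gene panel, 13 differed between the days. HAND1 stood 2.39 below the control on day 7 and 0.27 below it on day 11, a difference of -2.11 ± 0.11 (edgeR adjusted p = 1.14e-15). HOXB6 was likewise nearer to the control on day 11, with log2 fold changes of -8.0 and -2.39. MYL3 and TNNT2 showed larger rises on day 11 (4.02 and 2.10) than on day 7 (1.55 and 0.90), with differences of -2.47 ± 0.65 and -1.20 ± 0.21 (edgeR adjusted p = 0.00713 and 2.41e-04). ALDH1A2, NPPA and BMP10 were above the control on day 7 and below it on day 11; for ALDH1A2 the log2 fold changes were 3.55 and -3.59. CDKN1A, which rose on day 7, was at -0.21 on day 11. For NKX2-5 the effects were 3.29 and 3.39, a difference of -0.09 ± 0.27, and for COL3A1 -2.67 and -3.11, a difference of 0.44 ± 0.23; neither difference was called.

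Levels on the other days place day 7 in the course of the culture. Days 3 and 5 come from a table that was not fitted here, so these values are given without a test. NKX2-5 was at 0.14 and 0.06 FPKM in undifferentiated cells, at or under 1.04 FPKM on days 3 and 5 in both groups, and at 110 and 106 FPKM with HCl on day 11 against 9.40 and 12.63 FPKM in the control. TNNT2 was on in the control already on day 5 (25.9 and 25.6 FPKM) but at 0.63 and 0.86 FPKM with HCl, so that the order of the groups on day 7 was the reverse of that on day 5. HAND1 was below the control from day 3 on, at 21.8 and 20.5 against 290 and 232 FPKM. NPPB was at 1456 and 1426 FPKM with HCl on day 5 against 7.75 and 6.10 FPKM in the control, and on day 7 it had come down to 35.7 and 29.5 FPKM. AFP rose in both groups from day 7 to day 11, to 2635 and 3158 FPKM in the control and to 101 and 172 FPKM with HCl. POU5F1 was at 65.0 and 60.4 FPKM with HCl on day 5 against 9.09 and 9.31 FPKM in the control, and at or under 0.07 FPKM on day 11 in both. In libraries of IWP2 alone on day 7, MYH6 was at 1635 and 1468 FPKM and MYL3 at 271 and 249 FPKM, above every HCl library of that day, while FGF10 was at 18.9 and 20.4 FPKM and ISL1 at 30.5 and 32.5 FPKM, below them.

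**Figure D5:**
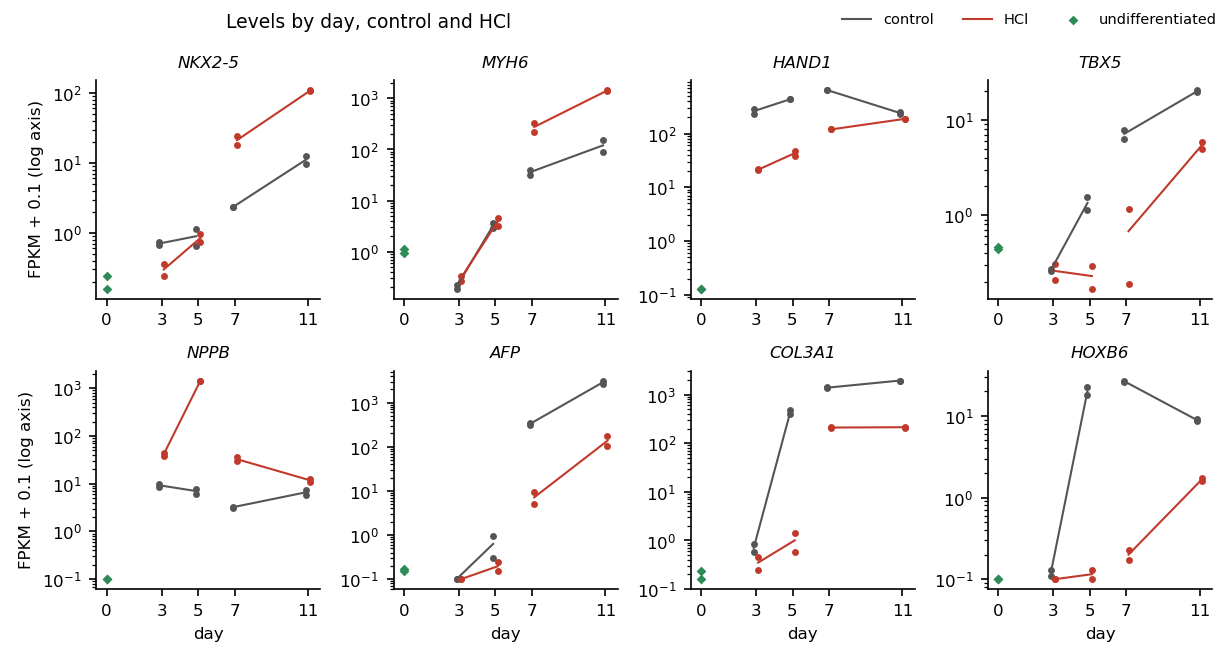
FPKM plus 0.1 on a log axis against the day of culture for 8 genes, with grey for the control, red for HCl and green diamonds for undifferentiated cells; points are libraries and lines join group means within a deposited table. On day 7 NKX2-5, MYH6 and NPPB lie above the control with HCl and HAND1, TBX5, AFP, COL3A1 and HOXB6 below it.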

How the data were processed

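RNA was extracted with RNAiso Plus and sequenced from libraries made with the VAHTS Universal V8 kit, per the labels. The submitters' processing notes name cutadapt 1.9.1, HISAT2 2.0.1, HTSeq 0.6.1 and the GRCh37 build, with no settings; whether counting used strand is not given in the sources used here. The deposited table holds raw counts and FPKM per gene for 26 libraries of days 7, 11 and 0. In each of the 4 libraries every gene of at least 1 FPKM had a deposited FPKM within 0.006 of its count scaled by exonic gene size and library total. Unmapped per-sample columns numbered 0.

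Counts were tested with edgeR 4.0.16 in R 4.3.3 (TMM scaling, robust quasi-likelihood fit, 1 mean per group over all 26 libraries). Genes with at least 1 FPKM in 2 of 26 libraries were tested (18451), and p-values were adjusted over all of them. Each standard error was taken from the fold change and its F statistic. FPKM are given as deposited, per library. A fold against a group with 0 counts was computed at 3 counts per library, which covers counting error only.

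Members, gene lists and the motif were chosen with earlier results of these data known. Named genes are a panel of 30, the 12 largest rises and 12 largest falls (called, 5 FPKM or more in the higher group, groups not overlapping), up to 6 called members of each role of 31 lists, and up to 3 uncalled members of each list with the highest levels; genes named outside this rule (among them MYL7, FHL2, ACTN2, TBX2, TBX3, ZFPM2, HEY1, MEF2A, the IRX genes, HCN4, OTC, SOX17, LRRN4, SEMA3D, antisense partners, markers, and genes that were uncalled or below the filter) were picked after their values were seen. Alternatives were DESeq2 1.42.0, limma 3.58.1 on log2(FPKM + 1) and log2(FPKM + 0.1), other scalings, filters and library sets, a replicate block, and leaving out each library. Some genes are not reported here.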

Additional observations from a re-analysis of the deposited data

Results flagged for a closer look

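The effect of HCl differed between day 7 and day 11, by a test of the interaction, in 1391 genes in which it was higher on day 7 and in 1012 in which it was lower. Among the panel genes, the difference (effect on day 7 minus effect on day 11, log2 scale) was largest upward for ALDH1A2, at 7.14, followed by NPPA at 5.19, CDKN1A at 2.72, BMP10 at 2.61, NPPB at 2.51 and the proliferation marker MKI67 at 1.08. It was downward for HOXB6 at -5.61, MYL3 at -2.47, HAND1 at -2.11, TBX5 at -1.79, HNF4A at -1.58, LUM at -1.35 and TNNT2 at -1.20. ALDH1A2 reached 1.88 FPKM at most and NPPA 2.53 FPKM at most in the 4 day 7 libraries, and 0.45 and 1.65 FPKM at most on day 11, so these differences rest on low levels. For HOXB6, HNF4A and LUM the effect was a fall on both days, and a deeper one on day 7. Several of these calls were lost without 1 library or with another tool. Without replicate 1 of HCl on day 7 the difference was -0.84 for TBX5 and -0.91 for TNNT2, without replicate 2 of HCl on day 11 it was -0.93 for HNF4A, and without replicate 1 it was 0.97 for MKI67, each under the 2-fold limit. Without replicate 2 of the control on day 7 the edgeR adjusted p was 0.0650 for MYL3 and 0.0527 for NPPB, and for NPPB it was 0.0607 without replicate 2 of the control on day 11. For TBX5 the call was also lost with DESeq2 (adjusted p = 0.0522) and with limma on log2(FPKM + 1) (adjusted p = 0.0562), and for MKI67 the difference was 0.98 with that limma fit.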

How the results depend on the processing

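Of the 1987 calls, 1902 were kept by DESeq2, 1914 by a fit of the 4 libraries alone and 1271 by limma on log2(FPKM + 1), and none was called in the opposite direction under any alternative run. Called genes were 535 higher with limma on log2(FPKM + 1); 1447 higher and 1919 lower with edgeR's own count filter, and 1968 lower without a filter, where all genes tested were counted; and 3935 and 3225 with no minimum fold. Interaction calls were 2188 and 1529 with edgeR's filter, 1547 lower without a filter, 632 lower with limma on log2(FPKM + 1), and 3577 and 3257 with no minimum fold. Leaving out 1 library gave 861 to 880 genes higher and 1049 to 1068 lower, and 1296 to 1380 and 912 to 1072 for the interaction.

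With no minimum fold, members called were 8 lower for cardiac transcription factors, 7 lower for calcium handling, 16 higher and 3 lower for the TCA cycle and fatty acid oxidation, 3 higher and 18 lower for fibroblast and matrix, 19 higher for G2/M, and 7 higher and 6 lower for the integrated stress response. Sarcomere genes called higher were 17 with the 4 libraries alone and 20 to 31 without 1 library. Endoderm genes called higher were 1 with limma on log2(FPKM + 1) and 1 to 2 without 1 library; stress response genes called lower were 0 and 0 to 1. The other 284 counts stayed within 1.5 times, library removals aside. The cause of these shifts was not tested. Of 189 named genes called, 151 were called under every alternative. Without replicate 2 of HCl, MYL3 turned to -0.0099 (2.31 without replicate 1) and the MYH7 interaction (0.23, not called) to -1.78, called, as with limma on log2(FPKM + 1) at -1.54; without replicate 1 it was 1.06, called. Calls of CKM, CSRP3, MYL3, MYOM1, PCK2, SLC8A1 and TNNC1 were lost without replicate 2 of HCl and those of CA14, CRYAB, HMGCS1, MSMO1, MVK, SLC16A3 and SLC9A7 without replicate 1. Without a control library, CKM, MIXL1, MYL3, PCK2, POU5F1, SLC16A3 and SLC9A7 lost theirs. SFRP2 lost its call without each of the 4 libraries.

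Replicate numbers are shared between control and HCl, and the correlation of their replicate differences over all reported genes was 0.017. In the 35 reported sarcomere genes, however, replicate 2 was above replicate 1 in 32 with HCl and in 30 in the control. The labels do not say if libraries with the same replicate number share more than the number. With the replicate block, 911 genes were higher and 1075 lower. With other scalings the median log2 fold change of all reported genes, 0.0488, went down to -0.0028 (total counts), and rises made up 42.9% of the calls in place of 45.9%.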

Other observations

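4 further groups were looked at after their values were seen, so their counts are descriptions with no test of the group. Of all reported genes 6.17% rose and 7.25% fell. Some members passed the filter through 1 group only and could be counted in only 1 direction. GLI1, HHIP, FGF7 and PLAGL1 passed only through the control libraries, and FGF8, SPRY3 and DLL3 only through the HCl libraries. The absence of rises among the hedgehog genes is therefore partly set by the filter. Genes of FGF signalling, which holds heart progenitors in a dividing state, were called 8 higher and 4 lower of 19 reported. Beside the ligands FGF8 and FGF10, the feedback genes DUSP6 (25.0 and 27.8 FPKM in the control, 108 and 121 FPKM with HCl), SPRY1, SPRY3, SPRY4, ETV5 and IL17RD rose. FGF7, a ligand of mesenchyme, fell from 4.96 and 4.90 to 0.26 and 0.30 FPKM, and the receptors FGFR4 and FGFR2 and the factor ETV4 fell too. Of 7 reported hedgehog genes 4 fell and none rose: the endodermal ligand IHH went from 13.4 and 12.6 to 1.12 and 1.32 FPKM, the target GLI1 from 5.39 and 5.13 to 0.26 and 0.27 FPKM, and the receptor and target PTCH1 and the target HHIP by 2.01 and 3.79 on the log2 scale downward, whereas SMO was at 30.3 and 30.9 against 29.2 and 29.3 FPKM.

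NOTCH genes gave 6 rises and 1 fall of 14 reported, led by the ligand JAG1, at 11.7 and 12.3 FPKM in the control and 81.3 and 85.8 FPKM with HCl, and by the target HEY1; the modifier LFNG fell by 2.52. Of 11 reported imprinted genes 7 fell and 1 (DLK1) rose. The growth-regulating RNA H19 was at 2213 and 2178 FPKM in the control and at 369 and 380 FPKM with HCl. Its neighbour IGF2 went from 451 and 425 to 93.0 and 95.8 FPKM, the factor PLAGL1 from 12.1 and 12.7 to 0.63 and 0.69 FPKM, and the cell cycle inhibitor CDKN1C from 83.9 and 80.3 to 20.9 and 19.0 FPKM. Liver-type endoderm and fibroblast-like cells carry H19 and IGF2 as well, and the markers of both were lower with HCl; their part in these falls was not tested.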
